A study of Mus musculus with 24 samples.

Results

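The genes described here are 38 genes of folding, quality control and secretion in the endoplasmic reticulum (ER), followed through mouse gestation in *C1qtnf6*-knockout and wild-type mice. The 38 symbols were chosen with measured values of these libraries in view, namely the lower level of *Creld2* in the knockout at gd14.5, and they make up 38 of the 55401 rows of the gene count table. A second, short row of the table carries the symbol *Ddit3*, and only the full-length gene was used. All 38 genes passed the filter on low counts in every comparison.

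Bulk polyA RNA-seq was made from the maternal-fetal interface (MFI), the tissue where placenta and decidua meet, on gestational days (gd) from mid-gestation to near term, namely gd10.5, gd14.5 and gd16.5, with gd19.5 as the last. At each stage there were 3 libraries of wild-type (WT) mice and 3 of mice with a CRISPR deletion of 3 exons of *C1qtnf6* (KO, homozygous as the study describes them), both on a C57BL/6 background and with no treatment named in the labels, which gave 8 groups and 24 libraries. *C1qtnf6* encodes the secreted protein CTRP6. No litter, dam or batch is named for any library, so the p-values measure the spread between these libraries only, and in bulk tissue fewer cells of a type cannot be told apart from less RNA per cell.

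The ER is where secreted and membrane proteins are made. A nascent chain enters through the Sec61 channel with the help of the translocon-associated proteins (Ssr subunits), the signal peptidase removes its leader, the chaperone BiP and its partners bind it, and calnexin, calreticulin and the protein disulfide isomerases help it to fold and to form disulfide bonds, while chains that fail are carried back to the cytosol by ER-associated degradation. When unfolded chains build up, the sensors IRE1, ATF6 and PERK switch on the unfolded protein response through the transcription factors XBP1, ATF6 and ATF4. The placenta is a strongly secretory organ, since trophoblast releases large amounts of peptide hormones of the prolactin family.

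Promoter sequence was used to show which of these genes carry the letters that ER stress factors are known to read. RefSeq promoter windows (build GRCm38.p6, 250 bases before to 50 bases after the start site) were at hand for 30 of the 38 genes. The ER stress response element (ERSE), read by ATF6 and XBP1 together with NF-Y, was searched as CCAAT and CCACG with any 9 bases between them, on both strands. It was found in 8 of the 30 genes (26.7%), against 37 of 27025 genes (0.137%) in the whole table of promoters. The 8 genes were *Hspa5*, *Hsp90b1*, *Dnajc3*, *Creld2*, *Calr*, *Canx*, *Pdia6* and *Derl3*. The core of the amino acid response element (CARE, TGATGNAA), which ATF4 and its partners read, was found in *Trib3*, *Asns*, *Chac1* and *Herpud1*, or 13.3% of the 30 genes against 4.51% of all genes. The XBP1 site TGACGTGG, whose reverse strand shares the letters CCACG with the ERSE, was found in 0 of the 30 genes and in 0.714% of all genes. A match is a string of letters and not a measured binding site. The sequences below are those of the genes on which the stage results turn, written 5′ to 3′ along the gene with the matched letters in capitals. They start with the BiP gene and end with the 2 amino acid response genes.

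Hspa5 (chr2:34772020-34772048, + strand): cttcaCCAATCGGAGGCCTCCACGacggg
Hsp90b1 (chr10:86705510-86705681, - strand): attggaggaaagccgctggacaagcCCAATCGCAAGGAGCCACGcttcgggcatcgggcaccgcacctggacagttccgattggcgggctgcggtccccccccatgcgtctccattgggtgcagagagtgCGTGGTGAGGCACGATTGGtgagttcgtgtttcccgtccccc
Creld2 (chr15:88819495-88819563, + strand): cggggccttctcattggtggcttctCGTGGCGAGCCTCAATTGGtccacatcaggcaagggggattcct
Calr (chr8:84847050-84847118, - strand): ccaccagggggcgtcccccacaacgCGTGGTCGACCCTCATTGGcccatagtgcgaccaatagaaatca
Pdia6 (chr12:17266466-17266534, + strand): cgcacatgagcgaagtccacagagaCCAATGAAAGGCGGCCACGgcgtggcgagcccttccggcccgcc
Canx (chr11:50325775-50325843, - strand): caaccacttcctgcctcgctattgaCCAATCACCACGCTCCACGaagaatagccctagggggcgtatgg
Chac1 (chr2:119351024-119351081, + strand): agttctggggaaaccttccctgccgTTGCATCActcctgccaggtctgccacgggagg
Asns (chr6:7693215-7693242, - strand): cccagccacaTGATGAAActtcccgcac

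In *Creld2*, *Calr* and *Chac1* the capitals read the element on the reverse strand. *Hsp90b1* held 2 ERSE matches, 1 on each strand. The short *Hspa5* stretch lies within an annotated exon, and the short *Asns* stretch lies within the annotated *Asns* gene and overlaps exon bases.

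**Figure D1:**
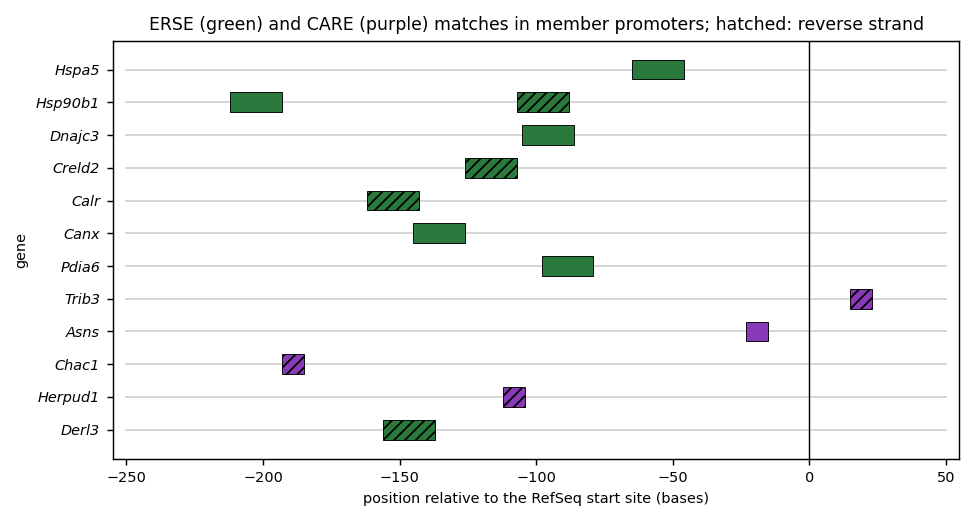
Position of each ERSE match (green) and CARE match (purple) along the promoter window of the 12 genes that hold one, in bases from the RefSeq start site (vertical line), with matches on the reverse strand hatched. All ERSE matches begin between positions -212 and -65, and the *Trib3* match is the one match after the start site.

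The libraries held between 20975717 and 37383108 counts, of which the 38 genes took from 1.22% to 1.96%. Their summed share in WT went from 1.24% ± 0.0231 (gd10.5) to 1.79% ± 0.0883 (gd14.5) and 1.72% ± 0.111 (gd16.5), and was 1.39% ± 0.0216 near term (gd19.5; SD, n = 3). In KO the shares in the same order were 1.31% ± 0.0853, 1.69% ± 0.117, 1.84% ± 0.104 and 1.48% ± 0.0934. *C1qtnf6*, checked first, had 158 ± 9.22 CPM (counts scaled to a common library size) in WT at gd10.5 and 0.913 ± 0.133 CPM in KO (SD, n = 3), and no KO library at any stage exceeded 2.05 CPM while the lowest WT library had 64.7 CPM. Marker lists of neighbouring tissues differed between libraries of a group. The summed level of 10 yolk sac endoderm markers was 8510 CPM in WT gd16.5 replicate 1 and 8110 and 22900 CPM in KO gd16.5 replicates 1 and 2, against 231 to 266 CPM in the other gd16.5 libraries, and at gd10.5 it was 4280 CPM in WT replicate 1, 40.9 and 43 CPM in the other WT libraries and 1370 to 4290 CPM in KO. The summed level of 12 junctional zone trophoblast markers was 15800 CPM in KO gd10.5 replicate 2 and 1180 to 2890 CPM in the other gd10.5 libraries. It rose to between 39500 and 80900 CPM at gd14.5 and gd16.5, and in WT gd14.5 against gd10.5 9 of these 12 markers rose and 0 fell. The part of these tissues in the ER gene results was not tested.

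Levels of different genes were compared as CPM per kilobase of gene model. In WT at gd14.5 *Calr*, encoding calreticulin, was highest at 849 CPM per kilobase, followed by *Hspa5* (BiP) at 693, *Hsp90b1* (GRP94) at 614, *Pdia3* at 514 and *Pdia6* at 369. *Chac1* was lowest at 0.915 CPM per kilobase, with *Trib3* next at 5.57. Over the 24 libraries stage accounted for a median of 76.2% of the variance of a member's log2 CPM and genotype for a median of 1.24%. Stage accounted for over 50% of the variance in 32 of the 38 genes, with the highest share in *Sec61b* (94.0%) and the lowest in *Derl1* and *Xbp1* (20.5% each). The split was made for the members only, so no share over all genes stands beside it. Stage moved many other genes too. From gd10.5 to gd14.5 in WT 27.7% of all genes tested rose and 28.3% fell.

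**Figure D2:**
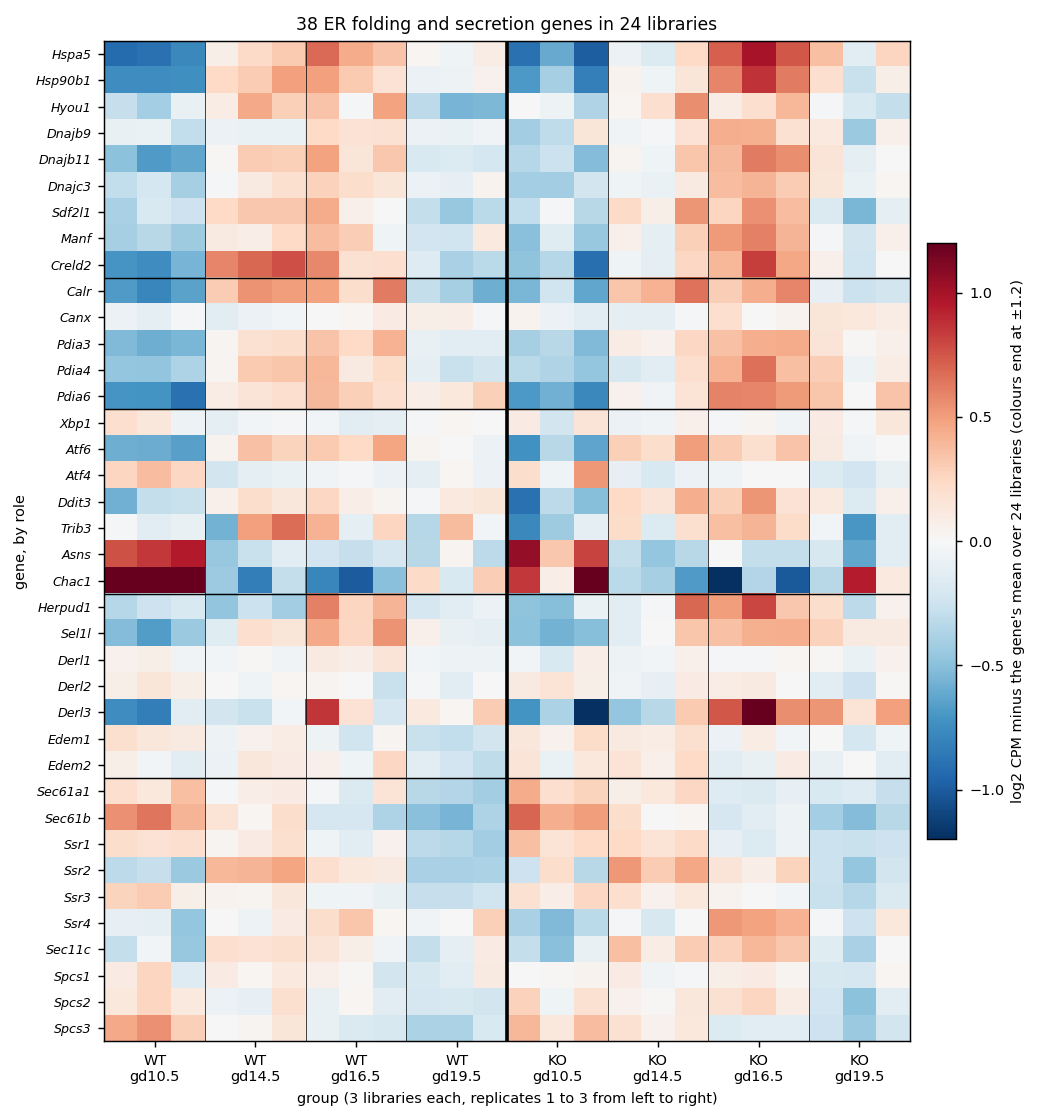
Level of each of the 38 genes (rows, grouped by role) in each of the 24 libraries (columns) as log2 CPM minus the gene's own mean over the libraries. Most BiP system rows are blue at gd10.5 and red at gd14.5 or gd16.5 in both genotypes, whereas *Asns* and *Chac1* are red at gd10.5, and most Sec61, Ssr and signal peptidase rows turn blue at gd19.5.

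The first question was how these genes moved through gestation, tested within WT and, in separate libraries, within KO with edgeR's quasi-likelihood test and Benjamini-Hochberg adjustment over all genes. From gd10.5 to gd14.5 most genes of the BiP system and of the lectin chaperones and disulfide isomerases rose, while *Asns*, *Chac1* and *Atf4* fell, in both genotypes. In WT 17 of the 38 genes rose (44.7%, against 27.7% of the 18523 genes tested) and 5 fell (13.2%, against 28.3%). In KO 17 rose (44.7%, against 22.1% of 18467 genes) and 4 fell, against 24.1% of all genes. Without KO gd14.5 replicate 3 the KO counts were 11 and 2. *Creld2* is among the genes that rose. The median log2 fold change of the 38 genes was 0.30 in WT and 0.34 in KO, where that of all genes was -0.01 and -0.00.

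Of the 9 genes of the BiP system, 8 rose in WT and 8 in KO, *Creld2* among them in both. *Dnajb9*, encoding the BiP co-chaperone ERdj4, did not pass in either. *Hspa5* had 1340, 1368 and 1485 CPM in the 3 WT libraries of gd10.5 and 2662, 2979 and 3155 CPM in those of gd14.5. The groups did not overlap, and the log2 fold change was 1.07 ± 0.107 (SE, adjusted p = 3.3e-06). In KO *Hspa5* had 1365, 1666 and 1279 CPM at gd10.5 and 2423, 2266 and 2999 CPM by gd14.5 (log2 fold change 0.83 ± 0.194, adjusted p = 0.00533). *Hsp90b1*, the ER member of the HSP90 family, rose by 1.10 ± 0.102 on the log2 scale in WT (adjusted p = 1.89e-06) and by 0.66 ± 0.174 in KO (adjusted p = 0.00945). *Dnajb11*, a co-chaperone that hands clients to BiP, rose by 0.81 in WT and 0.47 in KO. *Sdf2l1*, which works with *Dnajb11*, rose by 0.57 and 0.50, and *Hyou1*, a nucleotide exchange factor of BiP, by 0.54 and 0.41. *Manf*, an ER-retained and secreted stress protein, and *Dnajc3* (P58IPK) rose by 0.40 to 0.54 in WT and by 0.33 to 0.44 in KO.

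*Creld2*, encoding an ER-resident protein with disulfide isomerase activity, is described by its values, since its levels at gd14.5 led to the choice of these genes. It is nonetheless counted among the genes that rose, so those counts rest in part on the gene behind the choice. It had 65.8, 64.2 and 73.0 CPM at gd10.5 and 162, 173 and 183 CPM by gd14.5 in WT (log2 fold change 1.36). In KO it had 77.0, 84.6 and 57.3 CPM at gd10.5 and 104, 99.3 and 128 CPM by gd14.5 (log2 fold change 0.59). The groups of the stages did not overlap in either genotype.

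Among the lectin chaperones and disulfide isomerases, 4 of 5 rose in WT and 3 of 5 in KO. *Calr* had 1116, 1035 and 1145 CPM at gd10.5 and 2207, 2596 and 2533 CPM at gd14.5 in WT. Every gd14.5 library was above every gd10.5 library, with a log2 fold change of 1.16 ± 0.12 (adjusted p = 4.44e-06) in WT and 0.93 ± 0.158 in KO (adjusted p = 0.001). *Pdia6* rose by 0.92 in WT and 0.73 in KO and *Pdia3* (ERp57, the partner of calnexin and calreticulin) by 0.70 and 0.55. *Pdia4* (ERp72) rose by 0.68 in WT, while its KO value of 0.34 ± 0.134 did not pass (adjusted p = 0.0549). *Canx*, encoding the membrane-bound lectin calnexin, had 723 to 786 CPM in the 6 WT libraries of these stages with a log2 fold change of -0.01 ± 0.0743. Its promoter also holds an ERSE match. Of the 8 genes with an ERSE match, 6 rose in WT and 6 in KO, with a median log2 fold change of 1.00 and 0.65. Of the 22 genes with a promoter window and no match, 6 rose and 4 fell in each genotype, and the median was -0.04 and 0.04. *Creld2* is among the 8 genes with a match and among the 6 of them that rose in each genotype. From gd16.5 to gd19.5 in WT 3 of the 8 genes with a match fell, beside 8 of the 22 without. The members without a promoter window (*Hyou1*, *Manf*, *Atf6*, *Derl1*, *Sec61a1*, *Ssr2*, *Sec11c* and *Spcs3*) are in neither group. Only the exact string of letters was sought, and the part of the element in these changes was not tested.

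The stress transcription factors and their targets split in direction. *Asns*, asparagine synthetase and a classical ATF4 target, had 80.7, 85.3 and 92.1 CPM at gd10.5 and 34.6, 39.4 and 43.5 CPM at gd14.5 in WT. It fell by 1.13 ± 0.105 on the log2 scale in WT (adjusted p = 1.79e-06) and by 1.13 ± 0.178 in KO (adjusted p = 0.000706), the groups not overlapping in either genotype. *Chac1*, a glutathione-degrading enzyme induced by ATF4, fell by 2.00 ± 0.201 in WT (adjusted p = 3.53e-06) and by 1.44 ± 0.421 in KO (adjusted p = 0.0159), from 5.29 to 6.92 CPM in WT at gd10.5 to 1.19 to 1.72 CPM at gd14.5. *Atf4* itself fell by 0.42 in WT and by 0.36 in KO. *Ddit3*, encoding the transcription factor CHOP, rose by 0.52 in WT and 0.83 in KO, and the sensor gene *Atf6* by 0.84 and 0.88. *Xbp1*, whose activation by IRE1 is through splicing that gene counts do not show, had a log2 fold change of -0.14 ± 0.0768 in WT and -0.04 ± 0.0995 in KO, and *Trib3*, a pseudokinase induced by CHOP, had 0.37 and 0.50 with neither passing.

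In ER-associated degradation only *Sel1l*, the adaptor of the HRD1 ubiquitin ligase, passed among the 7 genes. It rose by 0.62 ± 0.106 in WT (adjusted p = 0.000258) and by 0.60 ± 0.112 in KO (adjusted p = 0.00169). *Derl1* and *Derl2*, derlins that take part in retrotranslocation, and *Edem1* and *Edem2*, which act on mannose trimming of misfolded glycoproteins, had log2 fold changes between -0.13 and 0.09 in both genotypes. *Herpud1* and *Derl3* had 0.57 and 0.63 in KO and -0.12 and 0.37 in WT, none of which passed. Among the 10 translocation and signal peptidase genes, *Ssr2* rose by 0.78 in WT and 0.53 in KO and *Sec11c*, a catalytic subunit of the signal peptidase, by 0.44 and 0.53. *Sec61b*, the beta subunit of the Sec61 channel, fell by 0.40 in WT and by 0.48 in KO. *Spcs3* fell by 0.37 in WT, and *Ssr4* rose by 0.34 in KO, with 0.23 in WT not passing.

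**Figure D3:**
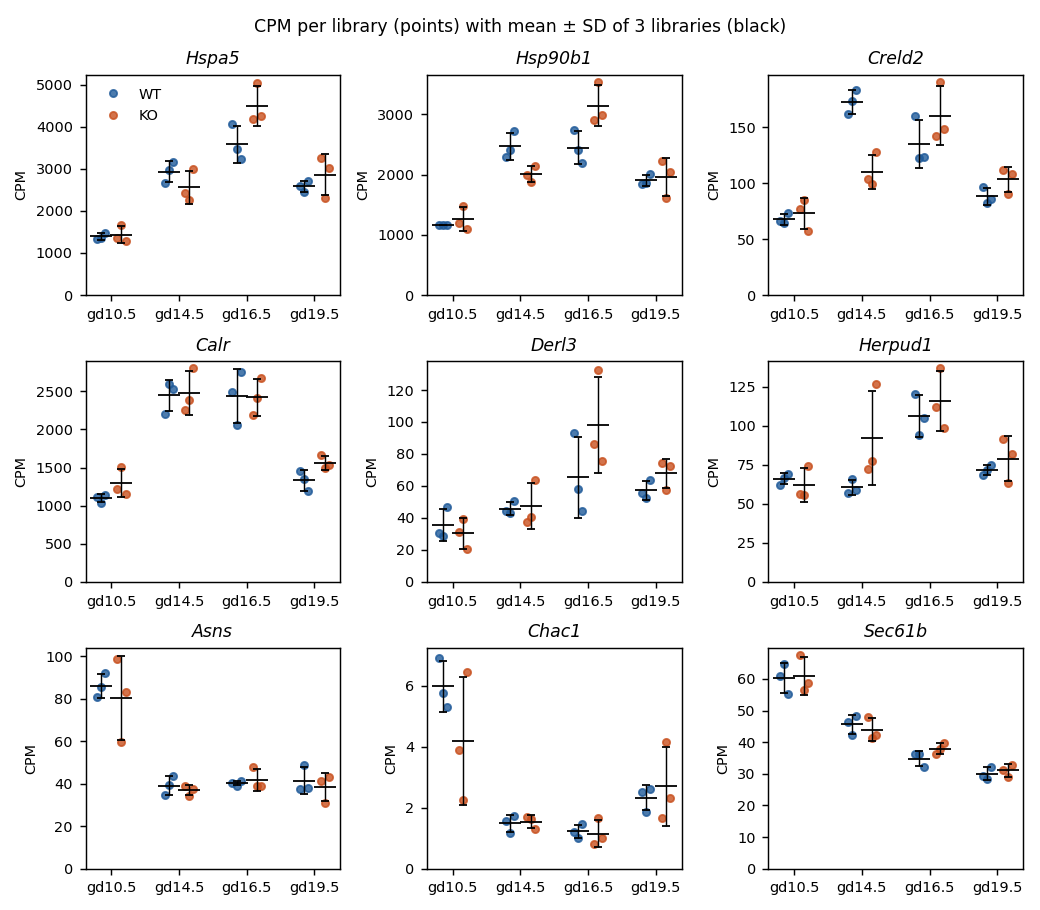
CPM of 9 of the genes in each library (points; WT blue, KO orange) by stage, with the mean and SD of 3 libraries in black. *Hspa5*, *Hsp90b1* and *Calr* climb from gd10.5 to gd14.5 or gd16.5 and are lower again at gd19.5, *Asns* and *Chac1* start high, *Sec61b* declines through gestation, and *Creld2* at gd14.5 is the panel in which the KO points lie farthest below WT.

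From gd14.5 to gd16.5 the values of WT and KO are given side by side, without a comparison of their counts, since the gd14.5 libraries led to the choice of genes. In WT 3 of the 38 genes rose (7.89%, against 12.5% of all genes) and 3 fell (7.89%, against 9.91%). In KO 10 rose (26.3%, against 9.37%) and 2 fell (5.26%, against 8.10%). *Herpud1*, which recruits ubiquilins to the degradation complex, had 56.7, 65.8 and 59.1 CPM at gd14.5 and 120, 93.9 and 105 CPM at gd16.5 in WT, a rise of 0.82 ± 0.0897 on the log2 scale (adjusted p = 6.69e-05). *Sel1l* and *Dnajb9* rose by 0.35 and 0.28 in WT, and *Creld2*, *Sec61b* and *Ssr2* fell by 0.35, 0.38 and 0.28. *Creld2* is counted here in both genotypes, although its gd14.5 levels led to the choice. In KO the 10 genes that rose were *Hspa5*, *Hsp90b1*, *Dnajb11*, *Dnajc3*, *Manf*, *Creld2*, *Pdia4*, *Pdia6*, *Derl3* and *Ssr4*, and *Sec61a1* and *Ssr1* fell.

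In KO *Hspa5* went from 2266 to 2999 CPM at gd14.5 to 4183, 5055 and 4251 CPM at gd16.5 (log2 fold change 0.81 ± 0.194, adjusted p = 0.0163). *Derl3*, a derlin found mainly in secretory cells, had 37.3, 40.8 and 64.0 CPM at gd14.5 and 86.2, 132 and 75.6 CPM at gd16.5 in KO (log2 fold change 1.05 ± 0.278, adjusted p = 0.0252). Its WT value of 0.52 ± 0.23 did not pass. KO gd16.5 replicate 2, the library with the most yolk sac marker RNA, was the highest of its group in *Hspa5*, *Hsp90b1*, *Creld2* and *Derl3*. KO gd16.5 replicate 1, also rich in these markers, was the lowest of its group in *Hspa5*, *Hsp90b1* and *Creld2*. *Calr* was highest in gd16.5 replicate 3 of each genotype, a library poor in these markers (2758 CPM in WT and 2672 CPM in KO). WT gd16.5 replicate 1 was the highest of its group in *Hspa5*, *Hsp90b1*, *Creld2* and *Derl3*. Summed Y-linked RNA, a sign of fetal sex, was 89.2 CPM in WT gd16.5 replicate 1. It was 194 and 188 CPM in KO gd16.5 replicates 1 and 2, and 0.487 to 1.14 CPM in the other gd16.5 libraries. At this stage fetal sex therefore cannot be told apart from the level of yolk sac markers. Without the 3 gd16.5 libraries rich in these markers 0 of the 38 genes passed in KO, where 1 gd16.5 library then remained and was assumed to vary like the other groups, and 6 passed in WT. The KO count was also 1 to 3 when gd14.5 replicate 1 or 2 or gd16.5 replicate 1 or 2 was left out, and the WT count was 3 without gd14.5 replicate 3.

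Between gd16.5 and gd19.5, near term, most of the BiP system genes fell in WT. Of the 38 genes 15 fell (39.5%, against 4.81% of all genes) and 1 rose (2.63%, against 3.16%), with a median log2 fold change of -0.23 against -0.01 for all genes. Of the 9 BiP system genes 6 fell, with a median log2 fold change of -0.47 over the 9. *Calr* had 2494, 2064 and 2758 CPM at gd16.5 and 1460, 1352 and 1186 CPM at gd19.5, a fall of 0.87 ± 0.119 on the log2 scale (adjusted p = 0.00147). *Hyou1* fell by 0.74, *Creld2* by 0.61, *Sdf2l1* by 0.53 and *Hspa5* by 0.47. *Herpud1* fell by 0.56, *Sel1l* by 0.46 and *Ssr2* by 0.53. *Chac1* was the gene that rose, from 1.02 to 1.46 CPM at gd16.5 to 1.87 to 2.63 CPM at gd19.5, a log2 fold change of 0.94 ± 0.218 (adjusted p = 0.022). Without WT gd16.5 replicate 1, the library rich in yolk sac markers, 10 genes fell, and without gd19.5 replicate 2 or 3 the number passing was 8. The nuclear RNA *Malat1* also differed without overlap over this step in WT, with 222 to 302 CPM at gd16.5 and 382 to 409 CPM at gd19.5. In KO it was at 243 to 355 CPM and then 211 to 271 CPM. Its part in the WT falls was not tested.

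In KO 1 of the 38 genes fell over the same interval (2.63%, against 0.666% of all genes) and 0 rose (against 0.574%). This gene was *Ssr4*, with 199, 193 and 184 CPM at gd16.5 and 136, 116 and 151 CPM at gd19.5, a fall of 0.51 ± 0.101 on the log2 scale (adjusted p = 0.0455). All 9 BiP system genes had negative log2 fold changes, with a median of -0.57 and unadjusted p under 0.05 for each, and the smallest adjusted p among them was 0.0545, for *Sdf2l1*. The median over the 38 genes was -0.33 in KO. With DESeq2 on the same 12 libraries, and with edgeR on all 24 libraries, 14 genes fell in KO, while 0 passed without the gd16.5 libraries rich in yolk sac markers. Leaving out 1 library at a time gave 0 to 13 genes, with 13 without gd10.5 replicate 2 and 6 without gd10.5 replicate 3.

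**Figure D4:**
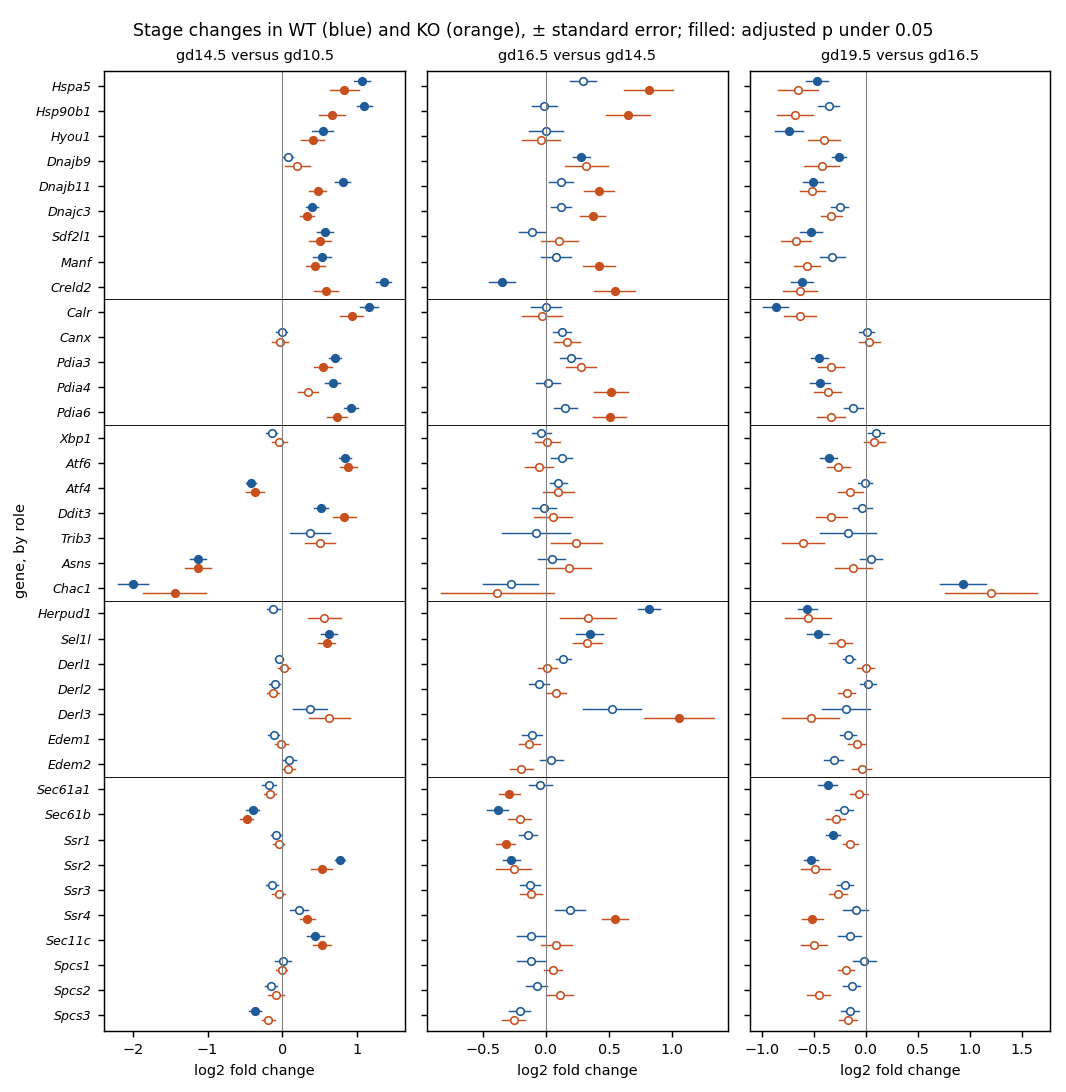
Log2 fold change of the 38 genes between successive stages in WT (blue) and KO (orange), with bars of ± 1 standard error and filled points for adjusted p under 0.05 (edgeR). The *Creld2* points are filled by the same rule, although its gd14.5 levels led to the choice of genes. In the first panel nearly all BiP system points lie to the right of 0 and in the last panel all of them lie to the left, with the KO points of these genes open.

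Over the whole course, gd19.5 against gd10.5, gene roles ended on opposite sides of the starting level. In WT 15 of the 38 genes were higher (39.5%, against 32.2% of all genes) and 10 lower (26.3%, against 32.7%). In KO 13 were higher (34.2%, against 28.4%) and 10 lower (26.3%, against 30.0%). These shares lie near the background. Of the 9 BiP system genes 6 were higher in WT and 5 in KO, and 0 were lower. Of the 10 translocation and signal peptidase genes 6 were lower and 1 higher in each genotype.

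*Pdia6* ended 0.95 ± 0.0929 higher on the log2 scale in WT (adjusted p = 1.36e-06) and 0.91 ± 0.134 higher in KO (adjusted p = 0.000159), and *Hspa5* 0.90 and 0.99 higher. *Derl3* ended 0.71 higher in WT and 1.16 higher in KO. *Sec61b* had 61.0, 64.8 and 55.2 CPM at gd10.5 and 29.4, 28.3 and 32.3 CPM at gd19.5 in WT. It fell by 0.99 ± 0.0853 on the log2 scale in WT (adjusted p = 4.21e-07) and by 0.98 ± 0.0924 in KO (adjusted p = 7.58e-06). Short stretches of *Sec61b* match the transcripts of 3 other annotated genes at 95.8% identity or more over 22.8% of its longest transcript or less, so its level carries that uncertainty. *Spcs3*, *Sec61a1*, *Ssr1*, *Ssr3* and *Spcs2* fell by 0.36 to 0.73 in WT and by 0.42 to 0.61 in KO. *Ssr4*, the X-linked subunit of the same translocon-associated complex, was 0.32 higher in WT and 0.37 higher in KO. *Asns* remained 1.04 lower in WT and 1.07 lower in KO.

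By group mean the BiP system genes were never highest at gd10.5 or gd19.5. In WT the highest mean fell on gd14.5 for 4 of the 9 and on gd16.5 for 5, and in KO for 1 and 8. The WT and KO counts are not compared, since the gd14.5 levels led to the choice of genes. *Creld2* itself is among the genes whose highest stage differed between the genotypes. The same count over all genes was not made. Of the 10 translocation and signal peptidase genes 6 were highest at gd10.5 in WT and 5 in KO.

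A list of 101 other ER and stress response genes, of which 100 were tested, was followed beside the members. In WT 44 of them rose and 13 fell from gd10.5 to gd14.5, 13 and 7 from gd14.5 to gd16.5, 1 and 30 from gd16.5 to gd19.5, and 30 and 39 over the whole course. In KO the counts were 40 and 10, 11 and 11, 0 and 5, and 31 and 32. These counts were read against the shares of all genes given above for the same intervals (100 genes were tested, so the counts are also percentages). The rises of the first interval lay above the background in both genotypes. So did the falls of the last step, in WT (30 against 4.81%) and in KO (5 against 0.666%). The counts of the second interval and of the whole course lay near it. The list's median log2 fold change was 0.17 in WT and 0.15 in KO for the first interval. By subject, of 23 other folding genes tested 15 rose and 0 fell in the first WT interval, of 18 integrated stress response genes 5 and 6 (7 and 5 in KO), of 24 genes of targeting, translocation and N-glycan transfer 9 and 3, of 14 degradation genes 7 and 3, of 13 ER to Golgi transport genes 4 and 0, and of 8 stress sensor genes 4 and 1. From gd16.5 to gd19.5 in WT 11 of the folding genes fell and 0 rose.

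Of these 100 genes 58 changed the same way over the whole course in both genotypes, 27 up and 31 down, which is near the 26.2% and 27.0% of the 18112 genes tested in both. *Creb3l1*, a transcription factor that controls secretory and collagen genes, rose from 5.34 ± 3.86 CPM to 69.8 ± 2.71 CPM in WT (SD, n = 3), a log2 fold change of 3.73 in WT and 3.09 in KO. The other large rises in WT were those of the stress factors *Nupr1* (log2 fold change 2.00) and *Atf3* (1.82), the BiP exchange factor *Sil1* (1.46) and the *Manf* relative *Cdnf* (1.34), with 2.48, 1.88, 1.47 and 1.42 in KO. Of the 18 integrated stress response genes of the list 7 were higher and 7 lower in WT over the whole course, and 8 and 5 in KO. The largest falls of the whole list were all in serine and one-carbon metabolism. *Psat1* fell by 2.80 in WT and by 3.23 in KO, *Mthfd2* by 2.20 and by 2.54, *Shmt2* by 1.08 and by 1.33, *Phgdh* by 1.01 and by 1.15, and *Aldh1l2* by 0.98 and by 0.94.

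The second question was whether loss of *C1qtnf6* changed these genes. At gd14.5, the stage that led to their choice, the values are a description without a test. *Creld2* had 162, 173 and 183 CPM in WT and 104, 99.3 and 128 CPM in KO, with every KO library under every WT library (log2 fold change -0.65). *Hsp90b1* had 2292, 2406 and 2726 CPM in WT and 1999, 1876 and 2144 CPM in KO (log2 fold change -0.31), also without overlap. *Herpud1* had 56.7, 65.8 and 59.1 CPM in WT and 72.3, 77.3 and 127 CPM in KO (0.60), and without KO replicate 3, the high library, its log2 fold change was 0.30. *Dnajb9* and *Edem1* were the other genes whose KO libraries all lay above WT, with 0.11 and 0.10. In all 3 genes (7.89%) lay higher and 2 (5.26%) lower without overlap, beside 6.41% and 6.10% of the 18024 genes. The median log2 fold change was -0.00, and 35 of the 38 lay within 0.3 of 0.

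At the other 3 stages 0 of the 38 genes passed the test between KO and WT. The genes passing in the whole table were 0.00572% of 17480 at gd10.5, 0.00586% of 17071 at gd16.5 and 0.115% of 17397 at gd19.5. Members with an unadjusted p under 0.05 numbered 0, 7 and 6 of the 38. Of all genes they were 140 of 17480, 1894 of 17071 and 2354 of 17397 (0.801%, 11.1% and 13.5%). The smallest adjusted p among the 38 was 1, 0.408 and 0.241. DESeq2 on the same libraries also called 0 at each stage. A miss does not show equal levels, and the median standard error of a log2 fold change was 0.119, 0.0956 and 0.0875 at these stages in turn.

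At gd10.5 the log2 fold changes ran from -0.51 (*Chac1*) to 0.24 (*Ssr2*). *Creld2* had a value of 0.11 ± 0.151 there, with 64.2 to 73.0 CPM in WT and 57.3 to 84.6 CPM in KO, so the groups overlapped. *Calr* was the only member without overlap, higher in KO (2.63% of the members, against 1.83% of all genes, and 0 lower against 2.35%). KO gd10.5 replicate 2, the library with the most junctional zone marker RNA and the only gd10.5 library with Y-linked RNA above 10 CPM, had the group's highest *Hspa5*, *Hsp90b1*, *Creld2* and *Calr*.

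At gd16.5 the direction of *Creld2* was the opposite of that at gd14.5, with 160, 122 and 124 CPM in WT and 142, 191 and 148 CPM in KO (log2 fold change 0.26 ± 0.15, adjusted p = 0.51). The groups overlapped. The KO libraries lay above WT without overlap for 9 members (23.7%, against 8.11% of all genes) and below for 1, *Derl1* (2.63%, against 9.62%). The 9 were *Hspa5*, *Hsp90b1*, *Dnajc3*, *Manf*, *Pdia6*, *Ssr3*, *Ssr4*, *Sec11c* and *Spcs2*. Of the 100 other ER genes 11 lay higher in KO without overlap and 5 lower, near the shares of all genes, and 0 passed the test. *Hspa5* had 4064, 3463 and 3225 CPM in WT and 4183, 5055 and 4251 CPM in KO (0.34 ± 0.135, adjusted p = 0.436), and *Hsp90b1* had 2740, 2408 and 2193 CPM in WT and 2912, 3539 and 2990 CPM in KO (0.37 ± 0.13, adjusted p = 0.431). The summed junctional zone markers were 49500 to 64300 CPM in WT and 74800 to 80900 CPM in KO at this stage. Rich in yolk sac markers were 1 WT and 2 KO libraries, the same that held Y-linked RNA above 10 CPM. The part of these tissues in these differences was not tested.

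At gd19.5 the KO libraries lay above WT without overlap for 11 members (28.9%, against 12.8% of all genes) and below for 0 (against 8.58%). They were *Hyou1*, *Dnajb11*, *Calr*, *Canx*, *Pdia3*, *Pdia4*, *Sel1l*, *Edem1*, *Edem2*, *Sec61a1* and *Ssr1*. Signs of RNA quality also differed without overlap at this stage. The nuclear RNA *Malat1* was at 382 to 409 CPM in WT and 211 to 271 CPM in KO, and mitochondrial genes took 2.18% to 2.41% of the counts in WT and 1.93% to 2.12% in KO. Their part in the result was not tested. *Pdia4* had 351, 315 and 325 CPM in WT and 467, 365 and 405 CPM in KO (0.29 ± 0.0935, adjusted p = 0.241), and *Hyou1* had 301, 254 and 257 CPM in WT and 368, 329 and 306 CPM in KO (0.28 ± 0.0902, adjusted p = 0.249). Without the filter on low counts, which changes the number of genes in the fit, these 2 genes passed. *Creld2* had 82.1 to 96.6 CPM in WT and 90.8 to 112 CPM in KO (0.20 ± 0.0887, adjusted p = 0.362). Of the 100 other ER genes 33 lay higher in KO without overlap and 1 lower, and 0 passed the test. The highest member log2 fold change at gd19.5 was 0.29 and the lowest -0.33, in *Trib3*.

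**Figure D5:**
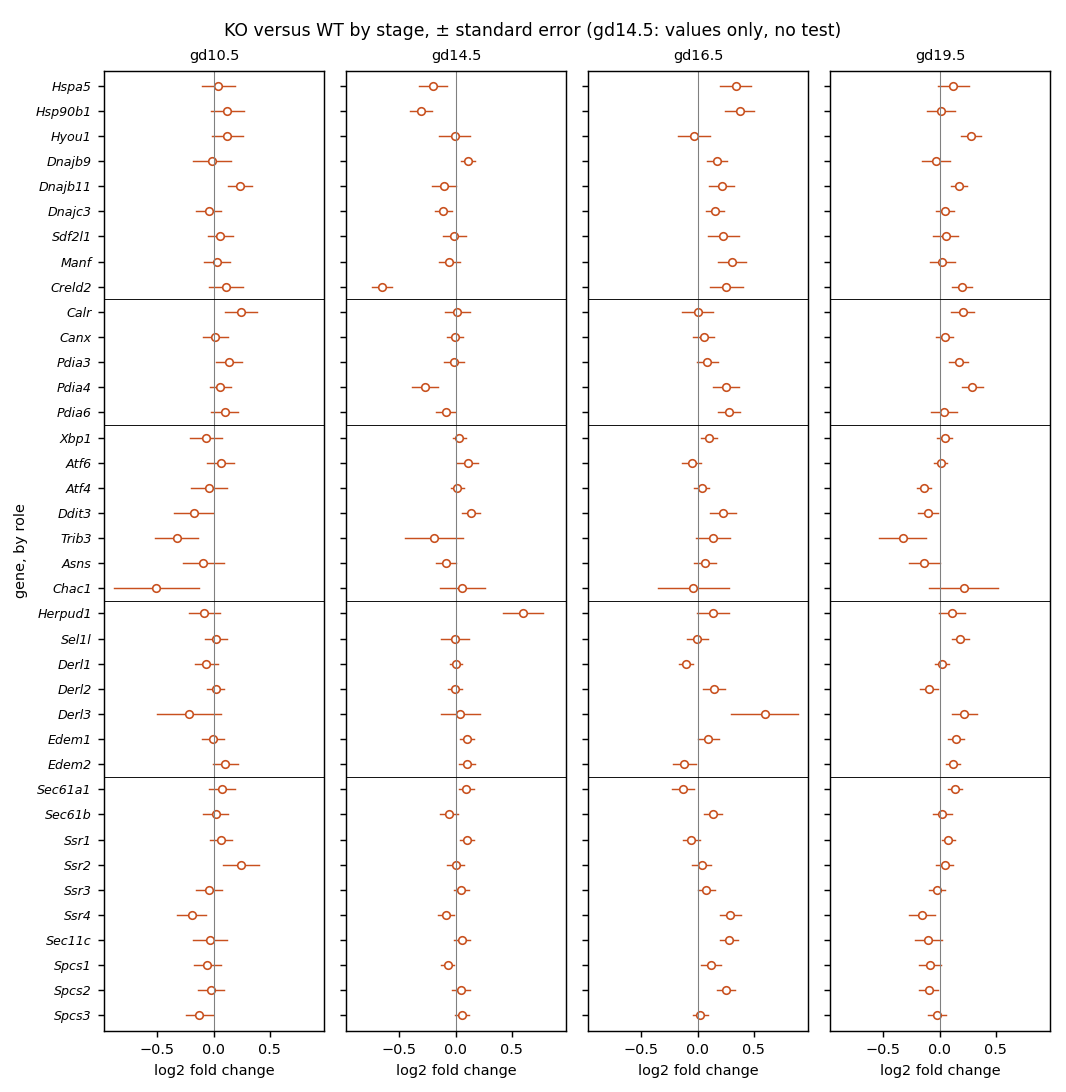
Log2 fold change of the 38 genes between KO and WT at each stage, with bars of ± 1 standard error; no point passed the test, and gd14.5, where the genes were chosen, carries values only. *Creld2* at gd14.5 (-0.65) stands farthest to the left of the 4 panels.

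The test of whether the KO effect differed between gd10.5, gd16.5 and gd19.5, in the 18 libraries outside the choice of genes, passed for 0 of the 38 genes and for 0% of the 18995 genes tested by edgeR. At an unadjusted p under 0.05 there were 1 of the 38 and 1321 of the 18995 genes, and DESeq2's likelihood ratio test called 0 of the 38. The smallest adjusted p among the members was 0.693.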

How the data were processed

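PolyA RNA of 24 MFI samples was sequenced as stranded paired-end libraries. The authors trimmed reads with Trim Galore 0.6.4, aligned them to GRCm38 with STAR 2.7.3a and deposited raw gene counts made with featureCounts of Subread 2.0.0. The counter was run at its default settings, which ignore strand and do not assign reads that overlap more than 1 gene. Members that share exon bases with another gene may therefore have lost reads. Exon bases were shared with another gene in 12 of the 38 members, over 10% of them in 3. All 38 gene positions matched GENCODE M21.

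The deposited counts were analysed with edgeR 4.0.16 (filterByExpr with a minimum count of 10, TMM scaling, quasi-likelihood test) in R 4.3.3, with Benjamini-Hochberg adjustment over all genes tested and a threshold of 0.05. CPM uses TMM-scaled totals of all 24 libraries, and its log2 form a prior count of 2. Stage comparisons used the 12 libraries of a genotype and KO versus WT the 6 of a stage. DESeq2 1.42.0 was an alternative. A floor of 3 counts is 0.0773 to 0.149 CPM, and covers counting error only. No pair of libraries agreed within sampling noise (chi-square per degree of freedom 7.86 or more over 24 pairs of the same group). The fits were tested on simulated data.

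The members, the role groups, the list of 101 other ER genes and the marker lists were chosen with earlier results of these data known. All members could be named. Of the other ER genes, the rule named up to 5 per direction with the largest WT change from gd10.5 to gd19.5 that passed in both genotypes, and none passed between KO and WT. Replicate numbers are those of the sample descriptions (KO titles number them 3, 4 and 5). Similar transcripts were sought with BLAST 2.17.0. Marker lists covered uterine NK cells, decidual stroma, junctional zone, giant cell and labyrinth trophoblast, yolk sac endoderm, plasma cells and pancreatic acinar cells.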

Additional observations from a re-analysis of the deposited data

Results flagged for a closer look

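*Hsp90b1*, the gene of the ER chaperone GRP94, moved in opposite directions between KO and WT at 2 stages with no overlap of the libraries at either. The ratio of mean CPM in KO to that in WT was 0.811 at gd14.5 and 1.29 at gd16.5. The difference between the stages was not tested, because gd14.5 is the stage that led to the choice of genes. All members were searched for such a reversal at every stage, and the share of all genes with one was not computed. Without overlap, 6.10% of all genes lay lower in KO at gd14.5 and 8.11% lay higher at gd16.5. Of the gd16.5 libraries, 1 of WT and 2 of KO were rich in yolk sac markers, and the part of that in the ratio was not tested. The same libraries were those of gd16.5 with Y-linked RNA above 10 CPM. Groups of 3 libraries are too small for the test of an outlying sample.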

How the results depend on the processing

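None of the 126 stage changes of members that passed the test changed sign in any of 2520 recomputed values (other scaling, filters, DESeq2, other sets of libraries, the replicate block, and each library left out). The steps of *Creld2* to and from gd14.5, the stage that led to the choice of genes, are among the 126. With a log2 fold change over 1 as a further condition, the threshold of the study, the WT counts became 6, 0, 0 and 2 for gd14.5 versus gd10.5, gd16.5 versus gd14.5, gd19.5 versus gd16.5 and gd19.5 versus gd10.5, and the KO counts 2, 1, 0 and 2. The WT count for gd16.5 versus gd14.5 was 3 in a fit of all 24 libraries. The KO count for gd19.5 versus gd16.5 was 1, and it became 9 with no expression filter, 14 with DESeq2, 14 with all 24 libraries and 10 with only the 6 libraries of the 2 stages. The cause was not tested. Leaving out 1 library gave 22 to 25, 3 to 6, 8 to 16 and 21 to 25 genes for the 4 WT intervals and 13 to 23, 1 to 16, 0 to 13 and 20 to 26 for the KO intervals, where the 13 of the first KO interval and the 3 of the second WT interval were both without gd14.5 replicate 3. Same-numbered libraries correlated in their deviations by -0.471 to 0.468, over 0.1 in 4 of 12 pairs of WT and KO, 3 of 18 pairs of WT stages and 0 of 18 pairs of KO stages. Only for WT gd10.5 and gd16.5, which were not compared with each other, were all 3 pairs over 0.1, so the numbers were not taken to pair the libraries of any comparison made. With the replicate block the KO counts for gd16.5 versus gd14.5 and gd19.5 versus gd16.5 were 4 and 0, and the other 9 counts stayed within 1.5 times. As an alternative chosen after seeing the data, without the 3 gd16.5 libraries rich in yolk sac markers, the count was 10 for WT gd19.5 versus gd16.5 and 0 for both KO intervals at gd16.5. Between KO and WT 2 members passed at gd19.5 with no expression filter, and 0 passed at any tested stage under the other settings, Y-linked expression as a covariate and each library left out included. The interaction test gave 0 members under every setting run.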

Other observations

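Marker lists of the tissues and cells at the MFI moved with stage beside the ER genes. In WT from gd10.5 to gd14.5 all 12 uterine NK cell markers fell (median log2 fold change -2.22) and 9 of 12 decidual stroma markers fell with 2 rising, while 7 of 10 tested labyrinth trophoblast markers rose and 1 fell (median 1.33), as did 4 of 9 giant cell markers with 3 falling, and 2 of 10 yolk sac endoderm markers fell. The summed NK cell markers went from 6040 to 9760 CPM at gd10.5 to 285 to 381 CPM at gd19.5 in WT. Plasma cell markers, of a cell type with an expanded ER, summed to 87.9 to 293 CPM over all libraries, and pancreatic acinar markers to 2.01 to 7.06 CPM, with between 1 and 4 of the 9 acinar genes at 0 in a group. At gd16.5 the summed NK cell markers were 569 to 857 CPM in WT and 252 to 314 CPM in KO, with 0 of 9 tested markers passing between the genotypes by edgeR. The median log2 fold change of these 9 was -1.57, and this fit called 1 of 17071 genes. The study, with DESeq2, reported lower *Prf1* and several granzyme RNAs in KO at gd16.5, and found *Prf1* and 4 granzymes lower by RT-qPCR. It also reported less PRF1 and GZMB protein and fewer decidual NK cells by flow cytometry in KO. In sorted decidual NK cells it found lower *Prf1* and *Gzmb* RNA.

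The subunits of the translocon-associated complex differed in course. *Ssr2* rose from 234 ± 13.9 CPM at gd10.5 to 400 ± 10.9 CPM at gd14.5 in WT and was at 228 ± 0.528 CPM at gd19.5 (SD, n = 3), whereas *Ssr1* and *Ssr3* went from 314 ± 4.29 and 552 ± 45.9 CPM to 214 ± 7.87 and 396 ± 5.80 CPM. *Ssr4* was at 119 ± 16.2 CPM at gd10.5, 139 ± 7.72 CPM at gd14.5 and 147 ± 18.9 CPM at gd19.5. *Ssr2* shares 12.8% of its exon bases with a processed pseudogene on the opposite strand.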
